A study of Gallus gallus with 20 samples.

Results

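Wide stretches of the histone mark H3K27me3 that shared not a single base with a peak of Polycomb repressive complex 2 (PRC2) were studied in the chicken lens. They were chosen from the peak list of H3K27me3 by 3 conditions: a place on an assembled chromosome, a width of at least 1000 bp, and no shared base with any listed peak of EZH2, SUZ12, JARID2 or AEBP2. The conditions left 1724 regions of 8131 wide H3K27me3 regions, a share of 21.2%, out of 22875 H3K27me3 regions on chromosomes and 22887 in all. They are called PRC2-free regions here, which says only that no peak was listed in them. The other 6407 wide regions are called PRC2-overlapping regions.

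The lenses came from Gallus gallus embryos at embryonic day 4.5, pooled at about 44 lenses, so epithelium and fiber cells were measured together. CUT&RUN, in which an antibody tethers a nuclease that cuts out the DNA around its target, was run on 100000 nuclei per reaction. Antibodies against H3K27me3 and H3K4me3 were used at a dilution of 1 in 50, those against EZH2 and SUZ12 at 1 in 100, against JARID2 at 1 in 50 and against AEBP2 at 1 in 25, in 3 libraries each, beside 2 libraries with IgG at 1 in 50. The labels name no strain, genotype or treatment, and 1 peak list stood for all libraries of an antibody.

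PRC2 trimethylates lysine 27 of histone H3, and genes covered by the mark are mostly silent. EZH2 is the catalytic subunit and SUZ12 the core subunit that holds the complex together, while JARID2 and AEBP2 are accessory subunits that help it to bind chromatin. The complex is known to be recruited at nucleation sites, often CpG-rich gene starts, and to bind the mark it has made, which lets the mark extend over the chromatin around such sites. The lens is a tissue of surface ectoderm origin, in which genes of other lineages are kept off.

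Because the peak lists held no value per library, no difference below could be set against a spread between libraries, and no test was made. Intervals are exact 95% binomial (Clopper-Pearson) intervals for shares and 95% order-statistic intervals for medians. They cover counting error only, and neighbouring regions are not independent. Read depth per library is unknown, and the lists differed in length: EZH2 had 25935 peaks, SUZ12 54487, JARID2 48093 and AEBP2 168110. How many PRC2-free regions there are thus depends on which peaks each list reached. The labelled tissue was set against its markers through H3K4me3, the mark of active gene starts: it lay at an end of 17 of 25 lens fiber genes (68%) and of 57.2% of all coding genes. Among markers of other cell types, 1 of 14 endothelial, 1 of 15 blood, 3 of 14 neural retina, 4 of 12 pigment epithelium, 5 of 16 mesenchyme, 2 of 12 muscle and 6 of 14 surface ectoderm genes had H3K4me3 at an end.

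PRC2-free regions were narrower and weaker than PRC2-overlapping regions in the H3K27me3 list. Their median width was 1479 bp (95% interval 1449 to 1512), against 2877 bp (2793 to 2956) in PRC2-overlapping regions. The fold is the authors' own enrichment ratio of each peak over the peak caller's background. Its median was 5.75 (5.55 to 5.95) in PRC2-free regions and 11.03 (10.6 to 11.4) in PRC2-overlapping regions. Single PRC2-free regions still reached a width of 16963 bp and a fold of 41.1. The deposited −log10 q-value, the peak caller's significance, had a median of 19.3 in PRC2-free regions and 92.9 in PRC2-overlapping regions. PRC2-free regions made up 3252 kb, or 8.85%, of the 36730 kb under H3K27me3.

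The share of H3K27me3 regions without a PRC2 peak fell steadily with width. It was 66.8% of regions under 500 bp, 54.5% at 500 to 1000 bp, 40% at 1000 to 1500 bp and 20.5% at 2000 to 3000 bp. At 5000 to 10000 bp it was 4.05%, and of 465 regions of 10000 bp or more only 5 (1.08%) were PRC2-free. A wider region offers more bases that a peak can touch, so part of this order follows from the measure itself. Among wide regions the share was 36.5% below a fold of 4, 22.2% at 8 to 12 and 3.61% at 20 to 30. At a fold of 30 or more, 7 of 1008 wide regions were PRC2-free (0.694%). Among the 14744 regions under 1000 bp the share was 62.5%.

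**Figure D1:**
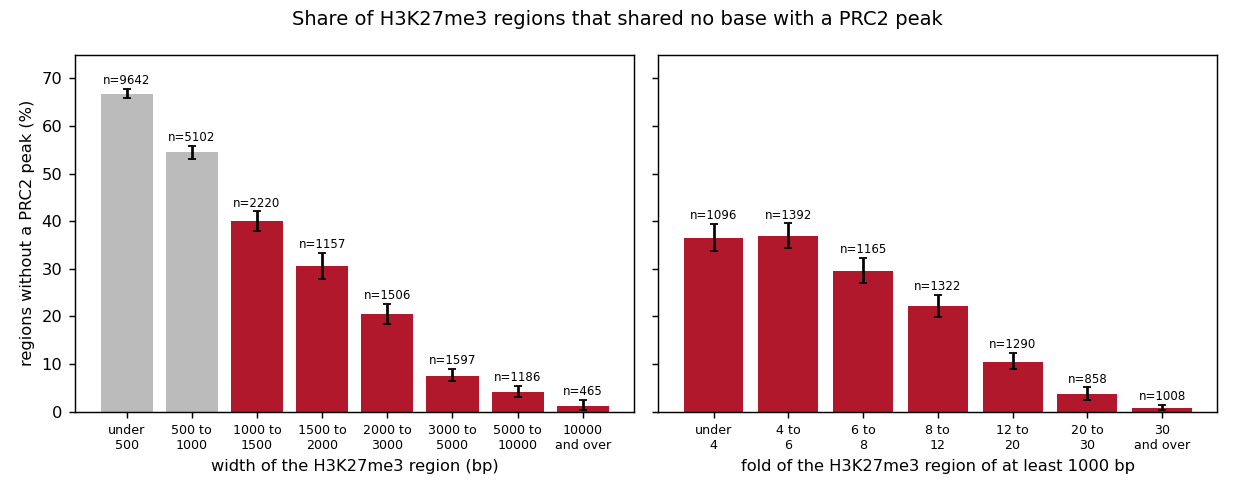
Share of H3K27me3 regions without a PRC2 peak (percent, vertical axis) in bands of region width (left, bp) and, for wide regions, of the deposited H3K27me3 fold (right), with exact 95% binomial intervals as bars. The share fell from band to band with width, and stood at 1.08% at 10000 bp or more and at 0.694% at a fold of 30 or more.

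Within the band of 1000 to 1500 bp the gap in fold was small. The 888 PRC2-free regions of that width had a median fold of 5.09, and the PRC2-overlapping regions of that width had 5.57. At the edge of the rule on width, 139 PRC2-free regions up to 50 bp above the minimum had a median fold of 4.86, and 155 regions without PRC2 up to 50 bp below it had 4.71. At the edge of the rule on overlap, 11 PRC2-free regions had a PRC2 peak within 50 bp and a median fold of 4.71, and 15 wide regions that shared at most 50 bp with a PRC2 peak had 3.90.

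Absence of all 4 PRC2 members was one end of a graded range. Beside the 1724 wide regions with no member, 1635 had peaks of 1 member, 1631 of 2, 1791 of 3 and 1350 of all 4. EZH2 was the most common member in wide regions (59.3%), followed by JARID2 (50.9%), SUZ12 (43.4%) and AEBP2 (39.1%).

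Although PRC2-free by rule, these regions rarely lay far from a PRC2 peak. The PRC2 lists are dense, with 168110 peaks of AEBP2 alone. Whether the regions lay closer to PRC2 than other positions of the genome was not tested. The median distance to the nearest peak of any of the 4 members was 1.48 kb (95% interval 1.37 to 1.61), and 10% of regions had one within 0.356 kb. A PRC2 peak lay within 1 kb of 622 regions (36.1%), within 5 kb of 1506 (87.4%) and within 10 kb of 1681 (97.5%). Only 43 regions were more than 10 kb and 7 more than 20 kb from every PRC2 peak, and the largest distance was 25.9 kb.

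Single members were farther away. The median distance was 7.27 kb to EZH2, 5.88 kb to SUZ12, 4.60 kb to JARID2 and 4.91 kb to AEBP2. The catalytic subunit thus had the largest median distance and also the shortest list. EZH2 was more than 50 kb away from 158 regions (9.16%), and at most 587.7 kb. JARID2 was within 100 kb of all 1724 regions, and AEBP2 of 1723.

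AEBP2 was the nearest member for 533 regions (30.9%), JARID2 for 448 (26.0%), EZH2 for 407 (23.6%) and SUZ12 for 336 (19.5%). The AEBP2 list was also the longest and the EZH2 list the shortest, so these shares are no measure of preference. In fold the neighbouring EZH2, SUZ12 and JARID2 peaks stood close to their lists: the nearest EZH2 peak had a median fold of 4.001, against 3.66 in the whole EZH2 list, and the nearest JARID2 peak had 4.35, against 4.29. The nearest SUZ12 peak had 3.82, against 3.76 in its list, but a lower median −log10 q, 4.98 against 5.65. For AEBP2 the nearest peak had a median fold of 3.27, against 3.71 in its list, and 33.6% of these peaks had a −log10 q of at least 5, against 44.5% of the list.

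**Figure D2:**
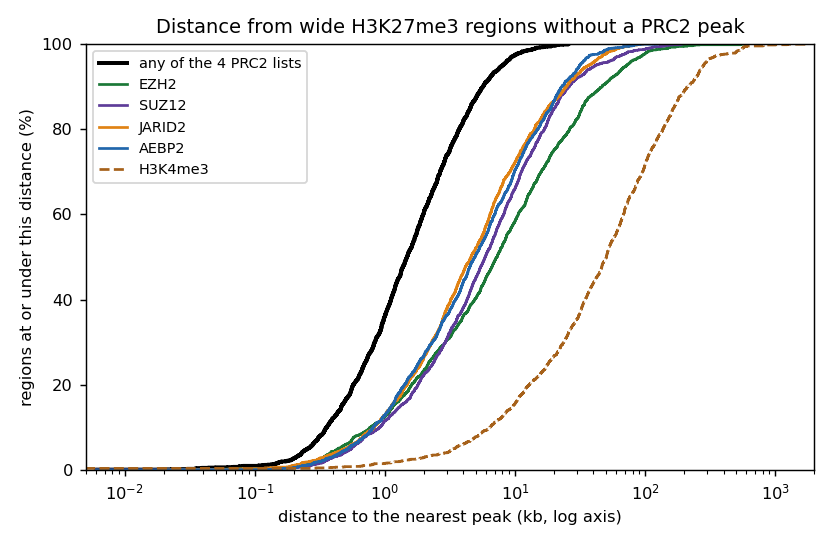
Cumulative share of the 1724 PRC2-free H3K27me3 regions (percent, vertical axis) with a peak of EZH2, SUZ12, JARID2, AEBP2, any of these, or H3K4me3 within a given distance (kb, log axis). The curve for any PRC2 member reaches 87.4% at 5 kb, and the H3K4me3 curve reaches 7.83% there. The H3K4me3 list is far shorter, with 11079 peaks against 168110 of AEBP2 alone, so these curves are not compared at equal density.

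PRC2-free regions almost never carried H3K4me3. Only 7 of 1724 overlapped an H3K4me3 region (0.406%, interval 0.163 to 0.835), against 1324 of 6407 PRC2-overlapping regions (20.7%, 19.7 to 21.7), and 16.4% of all wide regions did. Among narrower H3K27me3 regions without PRC2 the share was 0.466%. The median distance to H3K4me3 was 50.4 kb for PRC2-free regions and 22.6 kb for PRC2-overlapping regions. At a width of 1000 to 1500 bp the shares with H3K4me3 were 0.338% in PRC2-free and 17.0% in PRC2-overlapping regions. With the fold also held between 4 and 8, they were 0.388% and 13.8%. This measure is tied to the rule, because 90.1% of all H3K4me3 regions overlapped a PRC2 peak.

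The 7 regions with both marks were of ordinary strength, with folds of 2.33 to 8.89, and each shared at least 190 bp with H3K4me3. Each had a PRC2 peak within 865 bp. The strongest, chr1:57075508-57078767, lay 1.51 kb from TMEM178B and shared 279 bp. Others lay at an end of GLI1, a transcriptional effector of Hedgehog signalling (fold 5.82), of COL9A2, a collagen IX chain, with SMAP2 (6.15), of ABTB2 (5.58), of GPR50, an orphan receptor related to the melatonin receptors (3.21), and of SPNS3 and UBE2G1 (2.33).

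A smaller share of PRC2-free than of PRC2-overlapping regions lay at gene ends. A gene end is a window of 1 kb on both sides of either end of a coding gene, since the gene table used here gives no strand. Of PRC2-free regions 161 (9.34%, interval 8.01 to 10.8) lay at a coding gene end, against 3087 (48.2%, 47.0 to 49.4) of PRC2-overlapping regions, and 39.9% of all wide regions did. Among narrower H3K27me3 regions without PRC2 the share at an end was 7.55%. No share for the genome at large was taken. The median distance to a gene end was 16.2 kb in PRC2-free and 1.39 kb in PRC2-overlapping regions.

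At least 1 base of a coding gene body was shared by 834 PRC2-free regions (48.4%) and 4557 PRC2-overlapping regions (71.1%). Of all wide regions 66.3% did so, and such regions are called inside a gene here. A wider region meets a gene more easily, and at 1000 to 1500 bp the shares were 46.1% and 58.5%. Of all PRC2-free regions 42.1% lay inside a coding gene and clear of its ends and 48.6% outside coding genes and their ends, against 26.1% and 25.7% of PRC2-overlapping regions. Counted only over regions away from gene ends, 725 of 1563 PRC2-free regions (46.4%) and 1675 of 3320 PRC2-overlapping regions (50.5%) lay inside a coding gene. Non-coding genes alone held 197 PRC2-free regions (11.4%).

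The difference at gene ends stood in each band of width shown. At 1000 to 1500 bp, 9.68% of PRC2-free and 28.5% of PRC2-overlapping regions lay at an end, and at 3000 to 5000 bp 7.44% and 55.1% did. Among PRC2-free regions the share hardly followed width, while among PRC2-overlapping regions it was higher in wider bands. With both width (1000 to 1500 bp) and fold (4 to 8) held, the shares were 9.13% of PRC2-free and 23.6% of PRC2-overlapping regions. Gene ends are themselves rich in PRC2 peaks, which 81.4% of coding genes had at an end, so this measure too is not independent of the rule.

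**Figure D3:**
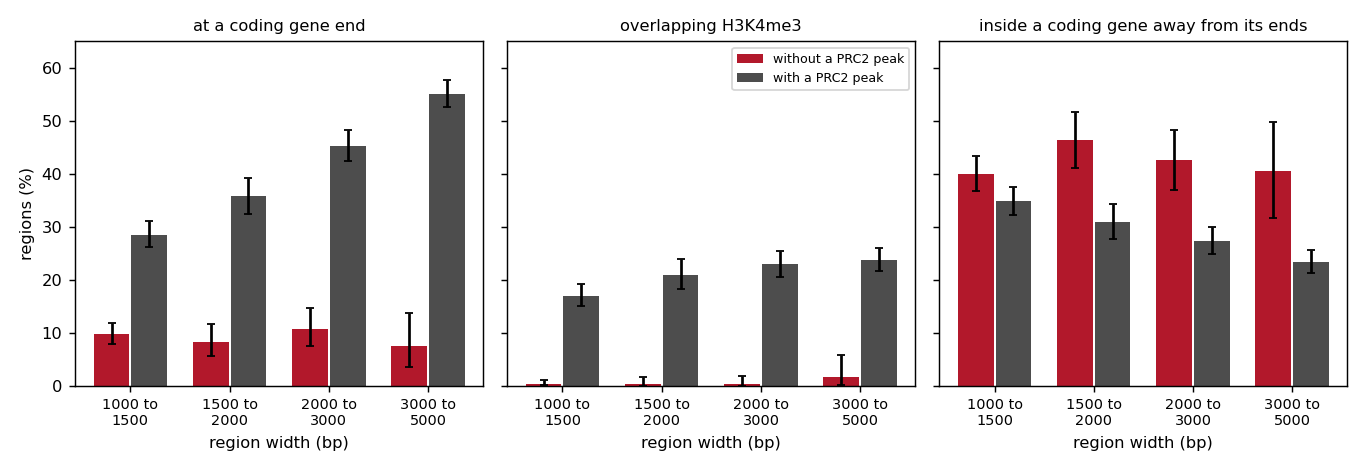
Share of regions (percent, vertical axis) at a coding gene end, inside a coding gene away from its ends, and overlapping H3K4me3, in bands of region width (bp), for PRC2-free regions and PRC2-overlapping regions, with exact 95% binomial intervals. At gene ends PRC2-free regions stay near 9.34% while PRC2-overlapping regions reach 55.1% at 3000 to 5000 bp.

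Most PRC2-free regions were pieces of larger H3K27me3 domains that held PRC2 elsewhere. Joining H3K27me3 regions of any width wherever the gap was at most 3 kb gave 8635 domains, of which 1087 held at least 1 PRC2-free region. In 849 of these another H3K27me3 region overlapped a PRC2 peak, and these held 1435 PRC2-free regions (83.2%, interval 81.4 to 85.0), at 96.4% of all wide regions. For narrower H3K27me3 regions without PRC2 the share was 73.3%. The 96.4% is no measured contrast, because every PRC2-overlapping region lies in such a domain by definition. A neighbour with PRC2 lay within 3 kb of 909 PRC2-free regions (52.7%), and 195 (11.3%) had such neighbours on both sides.

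In domains with PRC2, most PRC2-free regions were not the region of highest fold. Of the 1435 there, 201 (14.0%) were, and the median PRC2-free region had 0.388 of the highest fold of its domain. These 1435 lay in 849 domains, and only the top region of each can count, so a share per domain would be higher. The matching share of PRC2-overlapping regions was not taken. The remaining 289 PRC2-free regions (16.8%) lay in 238 domains with no PRC2-overlapping region, and 99 (5.74%) stood alone. Among domains that held a PRC2-free region, those without PRC2 were small, with a median width of 2.57 kb, against 14.7 kb for those with PRC2. Their PRC2-free regions had a median fold of 5.48, against 5.81 in domains with PRC2. Their median distance to a PRC2 peak was 3.23 kb, against 1.32 kb, and 16.3% of them lay at a coding gene end, against 7.94%. A domain with PRC2 here always joins a PRC2-free region with a PRC2-overlapping one, whereas a domain without PRC2 can be a single region. The orders for domain width and for distance to PRC2 thus follow in part from the rule and the stitching.

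The domain with most PRC2-free regions lay next to BMP2, which encodes a secreted bone morphogenetic protein, at chr3:14602549-14810522. It was 208.0 kb wide with 58 H3K27me3 regions, of which 17 were PRC2-free and 22 overlapped PRC2. The PRC2-free regions covered 50.9 kb, or 29.4% of the marked bases, with folds of 2.80 to 18.7 (median 7.82), against 3.63 to 27.9 (median 11.3) in the 17 wide PRC2-overlapping regions. The domain held 6 EZH2, 14 SUZ12, 11 JARID2 and 15 AEBP2 peaks, and the PRC2-free regions lay 0.448 to 6.34 kb from the nearest of them. Most of the domain lay in the gap of coding genes between HAO1 and BMP2. The widest PRC2-free region in it, 11578 bp at chr3:14706269-14717846 with a fold of 18.6, stood 78.6 kb from BMP2 and 39148 bp from the nearest EZH2 peak.

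A further 5 domains with 7 or more PRC2-free regions lay at named genes of varied function. The domain at EPHB1, a receptor tyrosine kinase of axon guidance, and KY was 171.8 kb wide at chr9:3351885-3523699 with 16 PRC2-free regions. Their folds had a median of 4.52 and ran to 12.2, against a median of 8.25 and up to 119.7 in wide PRC2-overlapping regions of the same domain. PAX2, a paired-box transcription factor of kidney, optic stalk and midbrain, lay at a domain of 147.1 kb with 11 PRC2-free regions (median fold 4.97) and 26 regions with PRC2. The domain at COL27A1, a fibrillar collagen gene, held 9 in 143.1 kb (median 8.62), and that at HTR2C, a serotonin receptor gene, held 8 in 95.6 kb (median 5.38). The domain in INPP5A, an inositol polyphosphate 5-phosphatase gene, held 7 in 85.1 kb (median 8.99), 60.04 kb from the homeobox gene NKX6-2. In each of these 6 domains the median fold of PRC2-free regions was below that of the wide PRC2-overlapping regions.

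Among the domains without any PRC2-overlapping region, one of 21.8 kb near RAB18, at chr2:15719671-15741490, had 4 PRC2-free regions with folds of 4.43 to 16.5, and one of 21.3 kb in GREB1L, a gene known for kidney development, had 3 with 10.6 to 17.4. The 3 regions in GREB1L covered 89.8% of the marked bases of their domain, 3.73 to 10.2 kb from the nearest PRC2 peak and 9.65 to 21.1 kb from EZH2. Neither of these domains held a peak of a PRC2 member or of H3K4me3. A domain of 20.6 kb on chromosome 19, 109.9 kb from AUTS2, was farther from EZH2, at 105.3 to 123.2 kb, and held a region of 9005 bp with a fold of 18.5. A domain of 17.1 kb on chromosome 9 lay 1.15 kb from DNAJC19 and 197.7 kb from SOX2. Further domains of this kind were 20.2 kb wide at 19.2 kb from SDC3, 19.0 kb wide at 38.0 kb from UTS2R, and 17.1 kb wide in ARAP2.

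**Figure D4:**
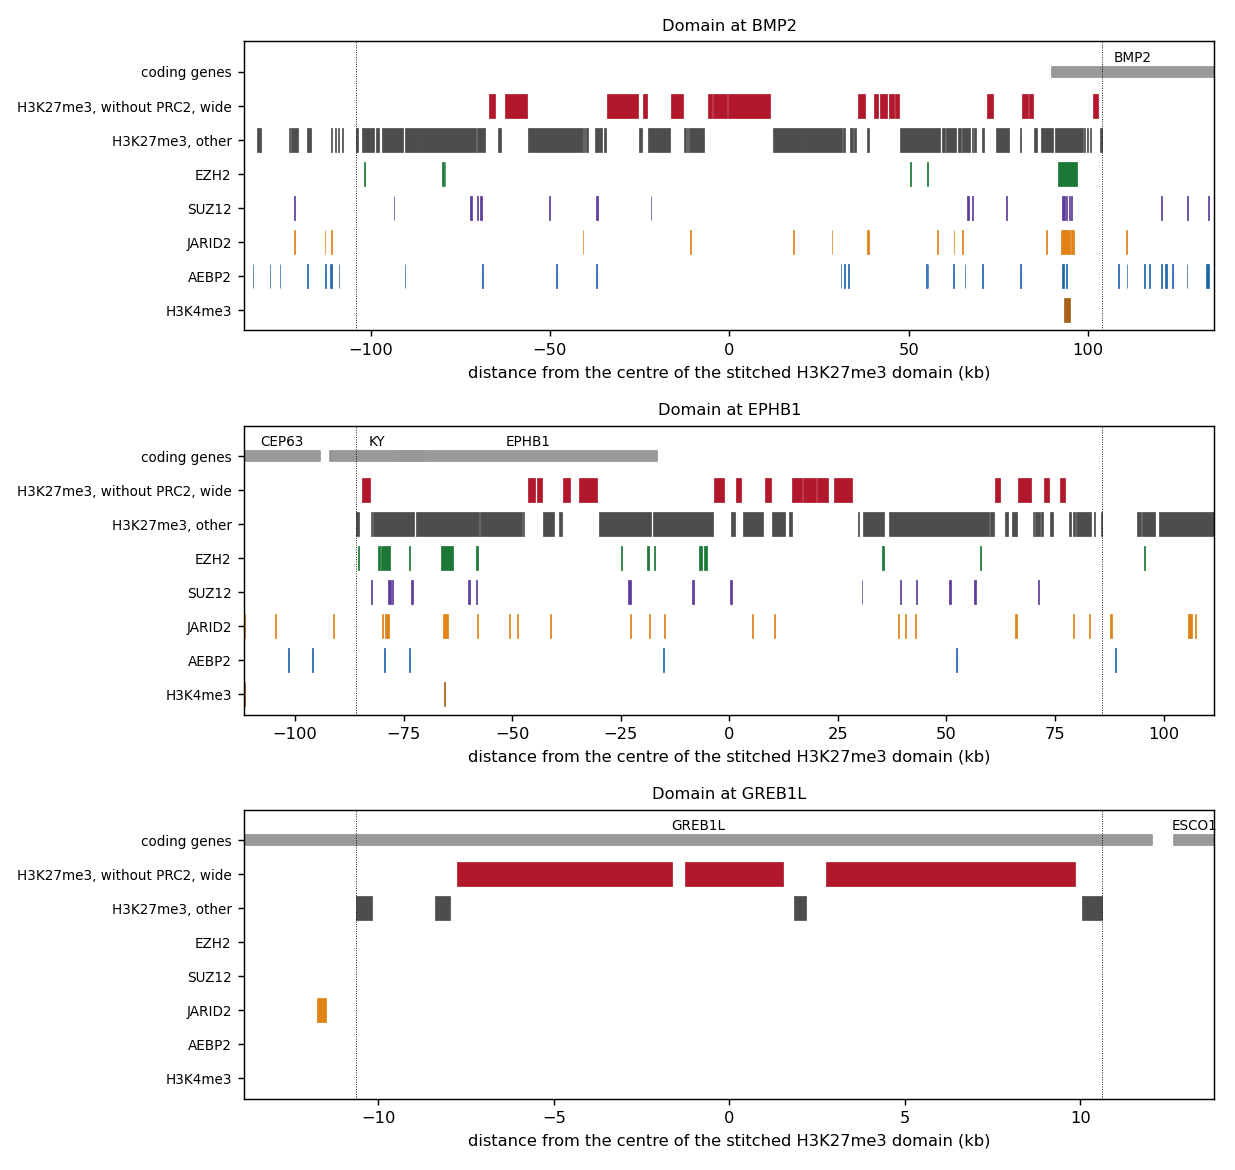
PRC2-free H3K27me3 regions, all other H3K27me3 regions (with PRC2 or narrow) and the peaks of each antibody along the domains at BMP2, EPHB1 and GREB1L, drawn to scale by distance from the domain's centre (kb), with coding genes above and dotted lines at the domain's edges. The domains hold 17, 16 and 3 PRC2-free regions, and at GREB1L no peak of a PRC2 member or of H3K4me3 lies between the dotted lines.

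The strongest PRC2-free region lay at chr1:46301601-46309796, 8196 bp wide with a fold of 41.1. It overlapped the long non-coding RNA gene LOC121110859, 215.1 kb from NEDD1. EZH2 was 209341 bp away, while AEBP2 was 1106 bp and SUZ12 1597 bp away. The next, with a fold of 36.9, lay 0.587 kb from LOC100857686 and 2.35 kb from CHRNA2, a nicotinic acetylcholine receptor subunit. A region of 5513 bp inside ENOX1 had 35.3, and one of 7523 bp inside MLLT3, a chromatin reader of the super elongation complex, had 31.5, with EZH2 50666 bp away but JARID2 1645 bp away.

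WNT1, which encodes a secreted signal of the midbrain and neural crest, held a PRC2-free region of 1599 bp with a fold of 32.6. The region lay at chr34:18905-20503, inside the gene of 5.41 kb and clear of its ends. A further 2 wide regions, both with PRC2, lay at the ends of WNT1, with a fold of up to 23.7, and the nearest PRC2 peak, of SUZ12, was 727 bp from the PRC2-free region. A region of 5775 bp that lay 39.7 kb from IRX1, an Iroquois homeobox gene, had a fold of 31.3, as did a region of 1197 bp close to DMTN, an actin-binding protein gene. TSHZ2, a zinc finger transcription factor gene, had as the strongest of its 7 a region of 4584 bp with a fold of 30.0, above the 17.5 of its strongest PRC2-overlapping region. In the protocadherin alpha cluster a region of 3692 bp over PCDHA1, PCDHA2 and PCDHA4 had 29.5, with EZH2 454 bp away. It lay 0.005 kb outside PCDHA5. ZNF800 followed with 29.3, INPP5A with 28.7, PKHD1, the fibrocystin gene, with 25.6, WNK1, a kinase of ion transport, with 24.1, and the overlap of PRDM16 and MMEL1 with 23.8. Of the 15 strongest regions, 13 lay in a domain with PRC2, and the region near DMTN did not.

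The widest PRC2-free region lay inside KL, the gene of the FGF co-receptor Klotho, with 16963 bp at chr1:174104745-174121707 and a fold of 22.4. All 4 PRC2 members were at a similar distance from it: EZH2 12171 bp, SUZ12 11310 bp, JARID2 12440 bp and AEBP2 12278 bp. KL held 3 further PRC2-free regions, with folds of 4.99 to 5.69. Its 1 PRC2-overlapping region, at a gene end, had a fold of 18.9. The next in width was 12895 bp over an end of PGR, the progesterone receptor gene, and beside ARHGAP42, with a fold of 19.5 and an AEBP2 peak 1476 bp away. Regions of 11208 bp between FBRSL1 and GALNT9 (fold 23.1) and of 10111 bp between MYL3 and PTH2R (8.83) lay outside coding genes, as did 9486 bp next to CDYL2 (12.4). SLC8A1, the sodium-calcium exchanger gene, held one of 8898 bp (12.1), and BEND5 one of 8754 bp (8.90).

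The PRC2-free region farthest from PRC2 lay inside TMEM132D at chr15:3549897-3552013, where the nearest peak, of EZH2, was 25891 bp away, with a fold of only 4.19. SDK1, a cell adhesion gene of the immunoglobulin superfamily, held 3 of the 10 farthest regions side by side. Their folds were 9.65, 9.51 and 13.0, the nearest PRC2 peak was always of SUZ12, at 20049, 23229 and 25390 bp, and SDK1 had no other wide H3K27me3 region. ANKFN1 held 2 of the 10 (folds 7.06 and 4.17). A pair on chromosome Z between PSAT1 and TLE4 had folds of 13.4 and 5.24, with SUZ12 143438 and 147920 bp away and AEBP2 nearest, at 21497 and 19064 bp. One lay in TESMIN (5.95), and the tenth was the region on chromosome 19 that lies 121.5 kb from AUTS2. None of the 10 lay in a domain with PRC2. This follows in large part from their choice by distance, since domains were joined across gaps of at most 3 kb.

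In terms of genes, PRC2-free regions touched 583 of 17839 coding genes (3.27%) in the body or within 1 kb of an end. PRC2-overlapping wide regions touched 4162 (23.3%). Of the 583 genes, 439 (75.3%) also had a PRC2-overlapping wide region, and 144 (0.807% of coding genes) had a PRC2-free region alone. In 65 of the 439 genes (14.8%) the highest fold was that of a PRC2-free region, as at WNT1, TSHZ2, KL and MLLT3.

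Genes with a PRC2-free region had a median length of 48.3 kb. Genes with PRC2-overlapping wide regions alone had 16.8 kb, and all coding genes 12.1 kb. The great length was that of the 439 genes with both kinds of region, at 66.3 kb. The 144 genes with a PRC2-free region alone had a median of 14.6 kb. A longer gene offers more room for a region. Of genes under 20 kb 1.55% had a PRC2-free region, and of genes of 200 kb or more 19.1% did. H3K4me3 lay at an end of 35.3% of the 583 genes, against 45.4% of genes with PRC2-overlapping wide regions alone. EZH2 lay at an end of 67.8%, against 88.0%, and of 59.3% of all coding genes. In genes of 20 to 50 kb these shares were 34.4% against 50.5% for H3K4me3 and 69.7% against 85.9% for EZH2. Of all coding genes of that length 67.3% had EZH2 at an end. The genes set against them were touched only by regions chosen for a PRC2 peak. The rule itself thus raises their EZH2 share, and the order for EZH2 is no independent result. Nor is the order for H3K4me3 independent of the rule, because 90.1% of all H3K4me3 regions overlapped a PRC2 peak. In genes of 200 kb or more the order for H3K4me3 was the other way round, with 52.3% against 39.9%. Of the 583 genes 401 had 1 PRC2-free region, and 81 genes, with a median length of 127.3 kb, had 3 or more.

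The 10 genes with most PRC2-free regions were all long, at 127.5 kb or more. NTM, which encodes the neuronal adhesion molecule neurotrimin, had 11 over 313.0 kb, with folds up to 12.8, beside 20 PRC2-overlapping wide regions with up to 51.5. Its neighbour OPCML, of the same adhesion family, had 7 beside 16. INPP5A had 10 beside 13, AUTS2, a gene of neuronal development, had 9 beside 12, and NFIA, a transcription factor of gliogenesis, had 9 beside 14. COL27A1 and HTR2C had 8 each, beside 10 and 9. In all of these the strongest region overlapped PRC2. TSHZ2 had 7 beside 2 and ARHGAP42 had 6 beside 2, and in both the strongest was PRC2-free. PRDM16, a transcriptional regulator, had 6 beside 19.

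PRC2-free regions were few in the lists of short transcription factor genes, as they were in short genes in general. Among 55 neural and retinal transcription factor genes touched by any wide region, 3 (5.45%) had a PRC2-free region: PAX2, PAX3 and LHX2. Among mesoderm and endoderm factors 3 of 49 did (TBX1, ALX1 and PRRX2), and of 37 HOX and EVX genes, all touched by PRC2-overlapping regions, none did. Over all coding genes 13.5% of the 4306 touched genes had one. These genes are short, with a median of 3.96 kb for neural factors, 9.57 kb for mesoderm and endoderm factors and 4.03 kb for HOX and EVX genes. Among all touched genes under 20 kb the share was 7.94%. The 5.45% of neural and 6.12% of mesoderm and endoderm factors, at 3 genes each, are thus no clear deficit for genes of that length.

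In 3 lists of secreted ligands, axon guidance and neuronal adhesion genes the share was near 20%, against 13.5% of touched genes in all. That share itself followed gene length: a PRC2-free region was present in 7.94% of touched genes under 20 kb, 16.5% at 50 to 100 kb, 25.7% at 100 to 200 kb and 29.2% at 200 kb or more. Of 50 touched genes of WNT, FGF, BMP and related ligands, 10 (20%) had a PRC2-free region, among them WNT1 (fold 32.6), PDGFC (11.6), PDGFB (9.23), BMP2 (7.67), FGF13 (6.69), FGF18 (4.17), FGF2 (3.76) and WNT5B (2.71). All of these 10 also had a PRC2-overlapping wide region. Axon guidance genes had 6 of 29 (20.7%), namely NTN1 (21.0), ROBO2 (15.5), EPHA4 (12.8), EPHB1 (12.2), PLXNA2 (5.52) and PLXND1 (3.77). In NTN1, which encodes netrin 1, the highest fold was that of a PRC2-free region, at 21.0 against 18.2 in its PRC2-overlapping regions. Synaptic and neuronal adhesion genes had 7 of 33 (21.2%): DSCAML1, NTM, OPCML, LSAMP, DSCAM, CNTN6 and PTPRT. The median length was 17.5 kb in the ligand list, 98 kb in the axon guidance list and 146.3 kb in the adhesion list. The axon guidance share of 20.7% lay between the 16.5% at 50 to 100 kb and the 25.7% at 100 to 200 kb. The adhesion share of 21.2% was below that 25.7%. Both medians cover all matched genes of the list, not only the touched ones, and whether either share is an excess was not tested. The ligand median covers all 64 listed genes. The ligand genes named above ran from 5.41 kb (WNT1) to 272.2 kb (FGF13). Whether 10 ligand genes are an excess at such lengths was not tested.

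Lists of channel, receptor, matrix and cadherin genes had 2 to 6 genes each with a PRC2-free region, and differences between them were not tested. Of all touched genes 13.5% had one, with 14.6% at 20 to 50 kb, 16.5% at 50 to 100 kb and 25.7% at 100 to 200 kb. Median lengths were 109.4 kb for calcium and sodium channels, 82.4 kb for potassium channels and 56.2 kb for receptors. They were 47.2 kb for matrix genes and 107.1 kb for cadherins. Calcium and sodium channel genes had 5 of 25 (20%), with CACNA1D (10.3) and CACNA1E (8.39) at the top, and CACNG2 (3.82) was touched by no other wide region. Potassium channel genes had 3 of 38 (7.89%), with KCNIP4 (5.62), KCNJ12 (4.62) and KCNJ5 (1.89). Neurotransmitter receptor genes had 4 of 50 (8%), namely HTR2C, GRID1, GRM7 and GRIK1. Matrix genes had 6 of 34 (17.6%), led by COL27A1 (15.4), and COL6A1 (7.36) and COL9A2 (6.15) had no other wide region. Cadherins had 2 of 20 (10%), FAT2 (5.22) and CDH23 (3.86).

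For lens genes the counts were too small to set them apart from the 3.27% of all coding genes that had a PRC2-free region. None of 25 lens fiber genes, such as those of the crystallins, had one, and 1 had a PRC2-overlapping wide region. Of 28 lens transcription factor genes EYA1, a transcriptional coactivator and phosphatase, had one (3.57%), with a fold of 4.43, against 16.2 in its PRC2-overlapping regions. None of 36 housekeeping genes had one. Among markers of other cell types, IKZF1 of blood, TNNI1 of muscle (fold 7.04), and GRHL3 (16.2) and TP63 (5.14) of surface ectoderm had a PRC2-free region, out of 15, 12 and 14 genes. No endothelial, neural retina, pigment epithelium or mesenchyme marker did, out of 14, 14, 12 and 16. TNNI1, a troponin gene, had no other wide region. At 3.27% of all coding genes, lists of this size would hold about 1 gene or none, so a count of 0 is no difference from other genes. No list was set apart by a test.

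**Figure D5:**
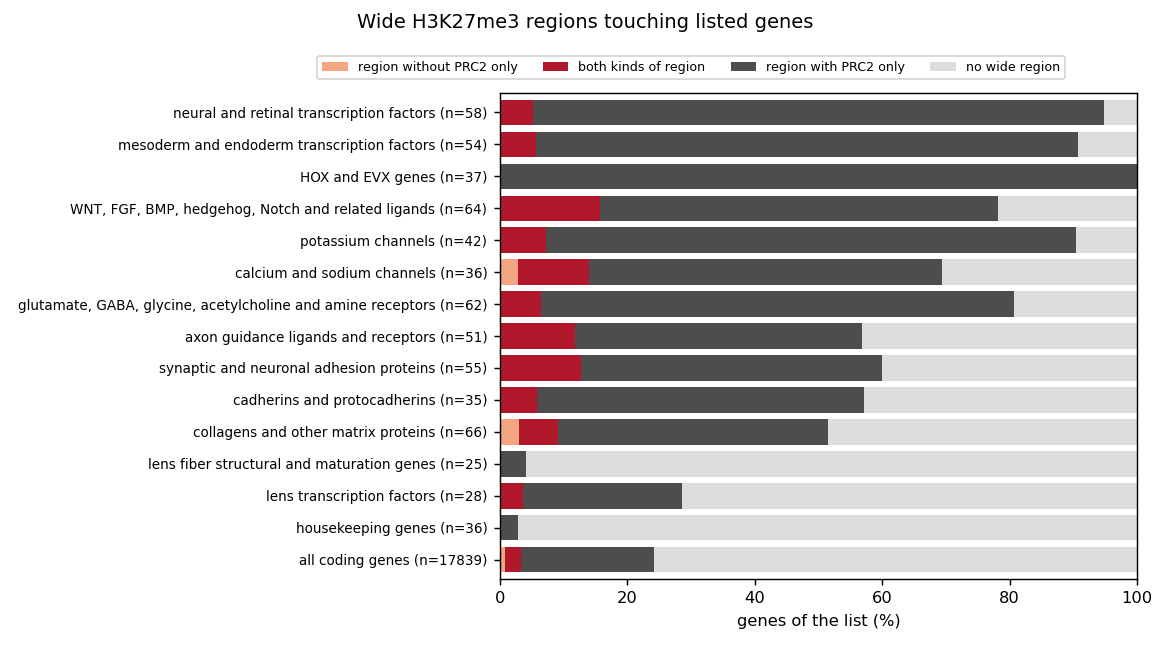
Share of genes (percent, horizontal axis) in each of 14 lists and in all 17839 coding genes that were touched by PRC2-free regions only, by both kinds of wide region, by PRC2-overlapping regions only, or by no wide region. Genes touched by a PRC2-free region make up 0% of HOX and EVX, lens fiber and housekeeping genes and 15.6% of ligand genes, against 3.27% of all coding genes. Counted only over genes touched by any wide region, the ligand share is 20% against 13.5% of all coding genes. The lens fiber and housekeeping lists have 1 touched gene each.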

How the data were processed

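The authors deposited 1 peak list per antibody for CUT&RUN of chicken lens. MACS2 2.2.7.1, Bowtie2 2.4.1 and Trim Galore 0.6.4 stand in the submitters' processing notes, as does the build GRCg7b. Pooling of libraries before peak calling and the use of IgG as control are not given in the sources used here. Each fold is the authors' enrichment ratio of a peak against the local background of the caller. Its significance is the deposited −log10 q-value, which was at least 1.30 in every list, near a q-value limit of 0.05 in the authors' calls. No counts per library were used, so the precision behind a peak is unknown.

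Regions were intersected by shared bases. Distances are in bp or kb between nearest edges. Genes were 17839 coding genes of the RefSeq table of GRCg7b, of which 3539 carry only a LOC identifier. A gene was touched where a region met its body or lay within 1 kb of an end. Of 752 names in 21 gene lists (14 of pathways or functions, 7 of cell type markers), 712 matched a symbol. Named genes were those at the 15 strongest, 10 widest and 10 farthest PRC2-free regions, at regions with H3K4me3 and in the 10 genes with most regions, with at most 8 per list in order of fold. Genes at the domains and the flanking genes were named beside them. A few items picked this way are not reported here, though they stay in the counts. The regions and lists were chosen with earlier results of these data known. No sequence or base composition was analysed here, because no genome was used. Python 3.11.15 with numpy 2.4.6, pandas 2.3.3 and scipy 1.17.1 was used, and the interval functions were tested on simulated data.

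Alternatives covered the minimum width, stricter q-values, the overlap or distance that counts, the lists used, lists of equal length, stitching, windows and the gene table.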

Additional observations from a re-analysis of the deposited data

How the results depend on the processing

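A count was taken to move beyond 1.5 times its reported value, and a share or median outside its 95% interval. Of 44 alternative values, 25 moved so and 0 reversed direction. Many could not reverse, because a count has no direction and the rule itself sets the order for distance to PRC2 and for domains with PRC2. The number of PRC2-free regions, 1724, was 4504 with a minimum width of 500 bp, 482 with 2000 bp, 2598 against only those PRC2 peaks whose −log10 q reached 5, 1102 with no PRC2 peak within 1 kb, 3310 against EZH2 alone, and 2600 against the 25935 strongest peaks of each PRC2 list. It was 2236 with regions under 10% covered by PRC2 counted as free, and 2224 without the AEBP2 list. Their median fold was 5.09 at 1000 to 1500 bp, 6.04 against the stricter PRC2 peaks, 5.98 with the stricter H3K27me3 peaks and 6.01 with no PRC2 peak within 1 kb. Their median distance to PRC2 was 2.95 kb against the stricter PRC2 peaks and 2.52 kb with none within 1 kb. In the last setting 0% overlapped H3K4me3 and 6.99% lay at a gene end. The share at a gene end was 24.4% of PRC2-free and 60.1% of PRC2-overlapping regions with windows of 5 kb, and 13.5% and 52.9% with all genes of the table. The share in a domain with PRC2 was 72.9% against the stricter PRC2 peaks, 77.1% with the stricter H3K27me3 peaks, 78.2% with none within 1 kb, 63.9% with stitching across 1 kb and 91.2% across 10 kb. Of 649 listed genes of pathways and functions, 50 had a PRC2-free region, against 8 with gene ends only. No paired analysis was possible because each antibody had 1 list without values per library, and for the same reason no library could be left out. Base composition was not run, because no genome was used.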

Other observations

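PRC2-free regions were spread over the chromosomes. They made up 21.6% of wide H3K27me3 regions on chromosomes 1 to 5, 22.6% on 6 to 10, 19.8% on 11 to 39 and 22.9% on Z. Some small chromosomes were lower: 14 of 155 on chromosome 27 (9.03%), 10 of 107 on 28 (9.35%) and 8 of 94 on 34 (8.51%). Others were not, with 26.6% on chromosome 19, 25.4% on 18 and 24.7% on 24. The median width of wide regions was 2736 bp on 27, 2766 bp on 28 and 2745 bp on 34. It was 2424 bp on 11 to 39 together and 2701 bp on 18. No test of these differences was made.

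A domain of 35.6 kb at chr2:12466273-12501868, in the gap between KLF6 and FZD8, held 7 PRC2-free regions with folds of 4.17 to 18.6. It contained 6 AEBP2 peaks and none of EZH2, SUZ12 or JARID2, and EZH2 was at least 64.5 kb from each of the 7. A domain of 34.6 kb that reached only an end of ADAMTS20, a secreted metalloprotease gene, also held 7, with folds of 2.82 to 23.5, against 7.54 to 13.0 in its PRC2-overlapping wide regions. It contained 2 AEBP2 peaks, 1 SUZ12 peak and no EZH2 or JARID2 peak.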
